A study of Mus musculus with 6 samples.

Results

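ER chaperones and ER-associated degradation (ERAD) genes were followed across RNA sequencing libraries of 4T1 cells, a mouse mammary tumour line. The set was a list of 37 gene symbols, chosen by function with earlier results of these data known. Of these, 37 of 37 were found among the 11452 symbols of the deposited log2 CPM matrix. All 37 also passed the filter on low values, which left 11269 genes for testing. The libraries came from cell pools that were knockout (KO) or wild type (WT) for Myo1e, the gene of the motor protein myosin 1e, with 3 libraries per genotype. Both genotypes share the 4T1 background. The sources used here do not give the knockout method, the derivation of the pools or any treatment of the cells. The matrix numbers its columns 1, 2 and 4 in each genotype, whereas the pools are counted 1 to 3 in the sample titles. KO 4, for example, stands for the KO library in the column with that number.

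The endoplasmic reticulum (ER) folds proteins bound for the cell surface, for secretion and for the organelles of the secretory route. Chaperones hold unfolded chains, protein disulfide isomerases join and rearrange cysteine bonds, and ERAD carries failed proteins back to the cytosol for the proteasome. When unfolded protein accumulates, the membrane sensors IRE1 (gene Ern1), PERK (gene Eif2ak3) and ATF6 start the unfolded protein response. ATF6 and the spliced form of XBP1 act on promoters of chaperone and ERAD genes, and PERK slows translation and favours translation of ATF4. Gene-level values do not separate spliced from unspliced Xbp1, nor active from inactive sensors.

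CPM gives read counts scaled to a common effective library size, with a small prior added before the log2, and a difference of 1 in log2 CPM is a doubling. The reads recovered from the matrix numbered 17772003 to 19988206 per library, and each member had 135 to 64865 reads in every library. Over all genes the libraries numbered 4 stood apart from the others. On the first principal component, with 83.8% of the variance, KO 4 and WT 4 scored 48.4 and 49.2, while the scores of the other 4 ran between -27.7 and -20.4. The meaning of the number was not given in the sources used here. Since each genotype has 1 such library, number and genotype can be separated. Myo1e itself was at 6.87, 6.81 and 6.81 log2 CPM in KO 1, KO 2 and KO 4, against 7.09, 7.02 and 6.91 in WT 1, WT 2 and WT 4. Its transcript was thus present in every KO library, and the KO minus WT difference of -0.18 (SE 0.09) was not called by limma (adjusted p = 0.9999). The libraries labelled KO are therefore taken as KO from their labels alone. Of the mammary epithelial markers 9 of 10 were measured, with Krt18 at 9.77 log2 CPM or more and Epcam at 7.66 or more in every library.

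The libraries numbered 4 differed from the rest in most members, which moved both ways. The sensors and Xbp1 rose, most folding chaperones and disulfide enzymes fell, and ERAD genes were split. In a limma fit over all 6 libraries with genotype as a covariate, 10 of 37 members were higher and 18 lower at an adjusted p under 0.05, and 9 did not pass. Of all tested genes 31.8% were higher and 33.8% lower in the same fit. The members' share of higher calls, 27%, lay near that background, and their share of lower calls was 48.6%. The median difference was -0.11 over the members and 0.0 over all tested genes, and the median absolute difference was 0.453 and 0.371. Both libraries numbered 4 lay above all 4 others in 10 members and below them in 19, where 35.8% and 37% of all tested genes did so. Bulk values cannot tell fewer cells with a transcript from less of it per cell. The series calls its samples biological replicates without saying how they were grown, and the p-values measure the spread between these libraries.

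**Figure D1:**
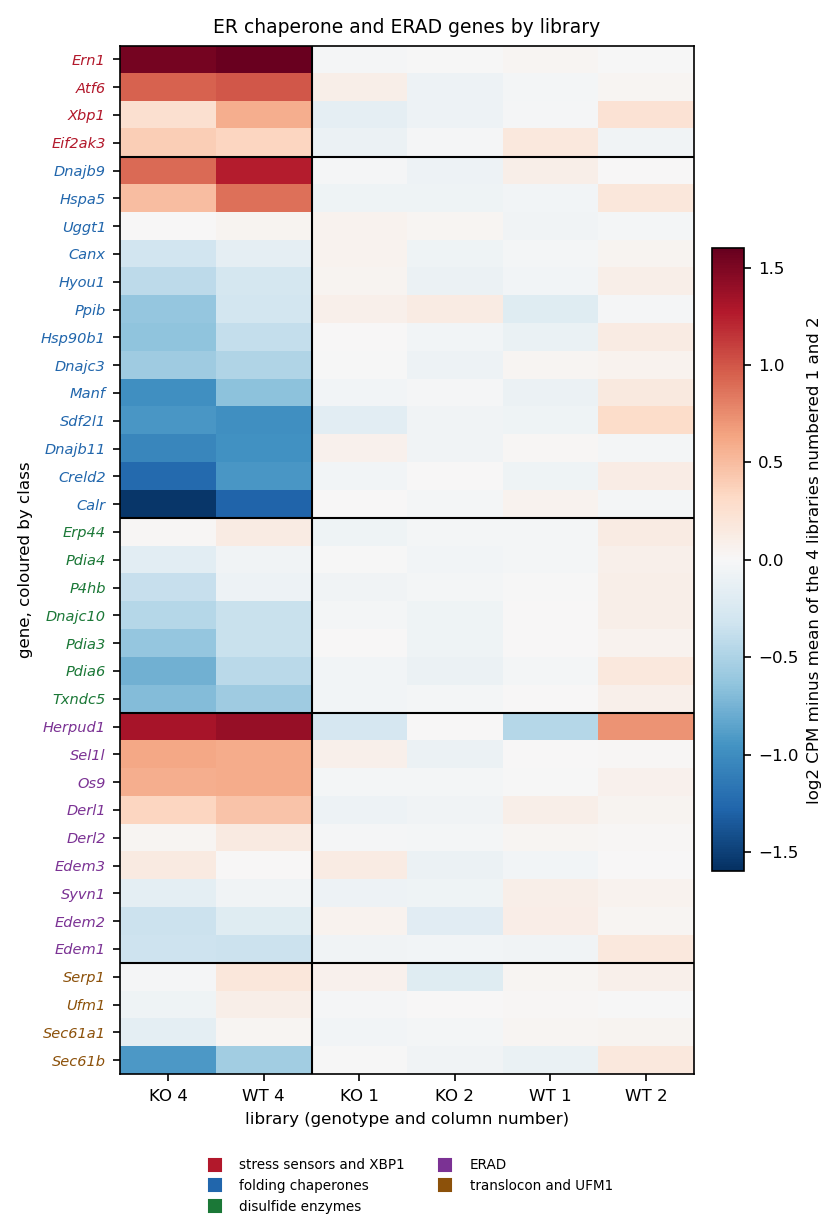
Heat map of 37 genes in 6 libraries, with the 2 libraries numbered 4 on the left. Colour is the log2 CPM of a library minus the mean of the 4 libraries numbered 1 and 2, rows are grouped by class and ordered by the difference within it. The 4 sensors and XBP1 rows are red in KO 4 and WT 4, and most folding chaperone and disulfide enzyme rows are blue.

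All 4 genes of the sensor class were higher in the libraries numbered 4, where 31.8% of all tested genes were. The class median was 0.70. Ern1, which encodes the kinase and RNase IRE1 that splices Xbp1 mRNA, reached 7.25 log2 CPM in KO 4 and 7.30 in WT 4, against 5.69 and 5.71 in KO 1 and KO 2 and 5.74 and 5.71 in WT 1 and WT 2. The 2 libraries numbered 4 lay far above the other 4, which differed among themselves by 0.05. The difference was 1.56 (SE 0.05, adjusted p = 9.1e-08), a 2.95-fold higher level and the largest among the members. Atf6, the gene of a sensor that is cleaved in the Golgi to release a transcription factor, stood at 8.10 in KO 4 and 8.15 in WT 4, against 7.24, 7.07, 7.12 and 7.18 in KO 1, KO 2, WT 1 and WT 2. The groups did not overlap, and Atf6 was 1.97-fold higher (adjusted p = 1.6e-06).

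Xbp1, the target of IRE1 splicing, reached 6.56 log2 CPM in KO 4 and 6.89 in WT 4, against 6.17 and 6.23 in KO 1 and KO 2 and 6.29 and 6.54 in WT 1 and WT 2. KO 4 lay only just above WT 2, so the rise of 0.42 (SE 0.08, adjusted p = 0.00098) was clearest within each genotype, at 0.36 in KO and 0.47 in WT. Eif2ak3, which encodes PERK, was at 4.64 in KO 4 and 4.59 in WT 4, against 4.15, 4.23, 4.41 and 4.19 in KO 1, KO 2, WT 1 and WT 2. It rose by 0.37 (SE 0.09, adjusted p = 0.0066), and without KO 4 the difference was 0.30 and the call ended (adjusted p = 0.11).

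Among the 13 folding chaperones and their cofactors 2 rose and 10 fell, where 31.8% of all tested genes rose and 33.8% fell. The class median was -0.51. The pair that rose was Hspa5 and Dnajb9. Hspa5 (GRCm38 chromosome 2, 34771970 to 34777547, plus strand) encodes BiP, the Hsp70 chaperone of the ER that also binds the sensors. It reached 11.37 log2 CPM in KO 4 and 11.76 in WT 4, against 10.81 and 10.81 in KO 1 and KO 2 and 10.84 and 11.06 in WT 1 and WT 2. Both libraries numbered 4 were above all others, with WT 4 the highest, and the difference was 0.68 (SE 0.09, adjusted p = 0.00012). Dnajb9, a J-domain cochaperone of BiP known as ERdj4, was at 3.96 in KO 4 and 4.31 in WT 4, against 3.03, 2.97, 3.15 and 3.06 in KO 1, KO 2, WT 1 and WT 2. It was 2.11-fold higher (adjusted p = 3e-05) on the fewest reads of any member.

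The deepest fall was that of Calr (GRCm38 chromosome 8, 84841850 to 84846934, minus strand), which encodes calreticulin, a lectin chaperone and calcium store of the ER lumen. Calr reached 8.36 log2 CPM in KO 4 and 8.63 in WT 4, against 9.92 and 9.89 in KO 1 and KO 2 and 9.97 and 9.89 in WT 1 and WT 2. The 4 libraries numbered 1 and 2 lay within 0.08 of each other, and the libraries numbered 4 were at 0.373 times their level (difference -1.42, SE 0.07, adjusted p = 4.3e-07). Creld2, an ER-resident factor induced by ER stress, was at 4.34 in KO 4 and 4.65 in WT 4, against 5.54, 5.59, 5.52 and 5.70 in KO 1, KO 2, WT 1 and WT 2, which is 0.47 times the level (adjusted p = 6.4e-06).

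Cofactors of BiP went both ways in these libraries. Dnajb9 rose, as did Sil1, a nucleotide exchange factor of BiP outside the set (0.64, SE 0.09, adjusted p = 0.0002). Sil1 was picked from a list of 35 further folding and oxidation genes, of which 12 rose and 12 fell. In the folding chaperone class 5 cofactors fell, where 31.8% of all tested genes rose and 33.8% fell. Dnajc10, a J-domain gene of the disulfide class, also fell. Dnajb11 (ERdj3), a J-domain protein that hands substrates to BiP, was at 0.499 times the level of the libraries numbered 1 and 2 (adjusted p = 1.1e-06). Sdf2l1, a partner of that J-domain protein, was at 0.513 times (adjusted p = 0.00015), and Manf, which stabilises certain BiP complexes and is also secreted, at 0.566 times (adjusted p = 2.6e-05). Dnajc3 (p58IPK), another cochaperone, fell by 0.52, and Hyou1, the nucleotide exchange factor Grp170, fell by 0.35. Hsp90b1, which encodes the Hsp90 of the ER (Grp94), reached 9.71 log2 CPM in KO 4 and 9.97 in WT 4, against 10.36, 10.31, 10.25 and 10.49 in KO 1, KO 2, WT 1 and WT 2. That is 0.703 times the level (adjusted p = 0.00058).

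The calls of Canx and Ppib depended on KO 4. Canx, the membrane-bound lectin chaperone calnexin and the relative of Calr, differed by -0.22 (SE 0.06, adjusted p = 0.014), and Ppib, the proline isomerase cyclophilin B, by -0.45 (SE 0.11, adjusted p = 0.0044). Without KO 4 these were -0.14 and -0.19, and both calls ended (adjusted p = 0.21 and 0.11). Without WT 4 Ppib was at -0.71. Uggt1, the glucosyltransferase that returns misfolded glycoproteins to the lectin chaperones, was at 8.40 in KO 4 and 8.43 in WT 4, against 8.45, 8.42, 8.34 and 8.36 in KO 1, KO 2, WT 1 and WT 2. Its difference of 0.02 (SE 0.05) did not pass, and it was -0.0018 under median centring and 0.19 under quantile normalization, where it passed (adjusted p = 0.0059).

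**Figure D2:**
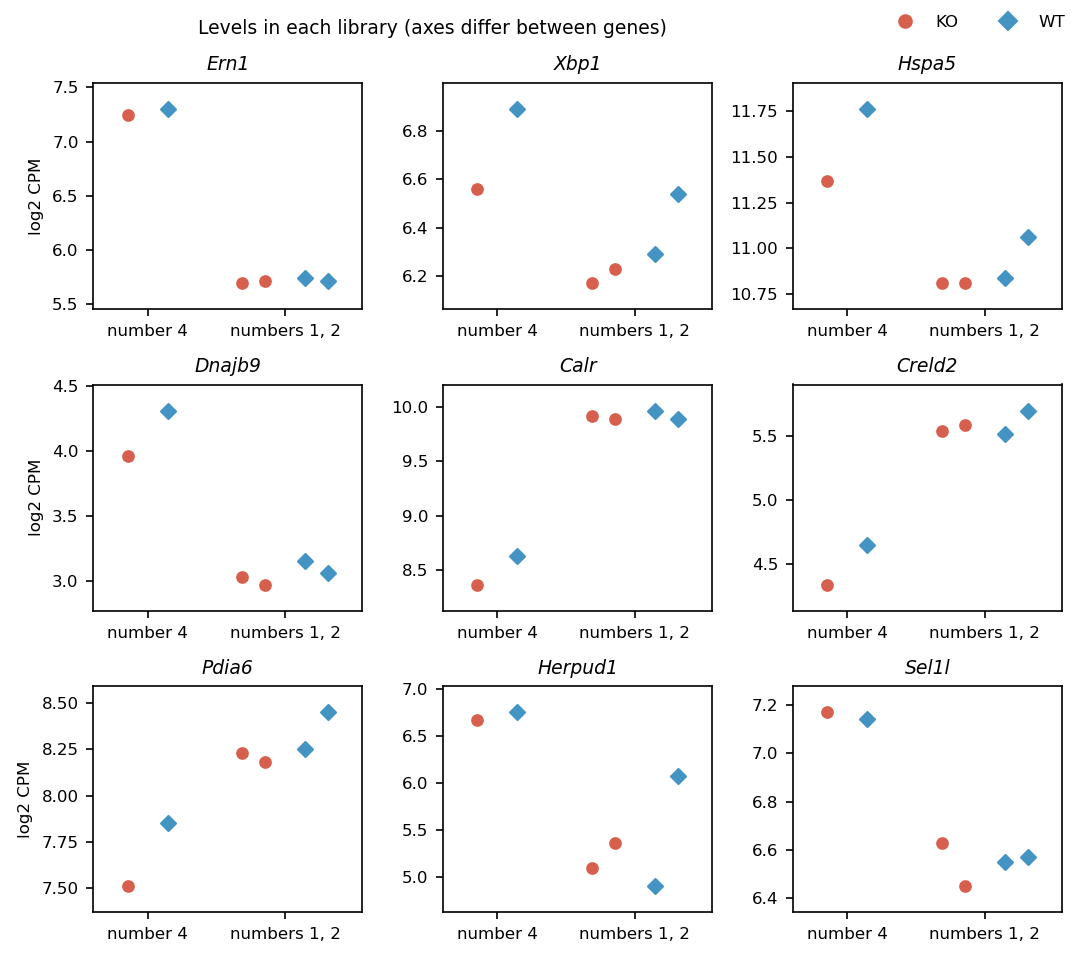
Levels of 9 genes in each library as log2 CPM, with circles for KO and diamonds for WT, the libraries numbered 4 on the left of each panel and those numbered 1 and 2 on the right. The axes differ between panels and do not start at 0. Ern1, Xbp1, Hspa5, Dnajb9, Herpud1 and Sel1l lie higher on the left, and Calr, Creld2 and Pdia6 lie lower there.

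Disulfide enzymes fell in 5 of 7 genes and rose in none, where 33.8% of all tested genes fell and 31.8% rose. The class median was -0.41. Txndc5 (ERp46), a disulfide isomerase family member, reached 7.71 log2 CPM in KO 4 and 7.83 in WT 4, against 8.35, 8.37, 8.40 and 8.48 in KO 1, KO 2, WT 1 and WT 2 (0.645 times, adjusted p = 7e-06). Pdia6, which acts on bonds of client proteins, was at 7.51 in KO 4 and 7.85 in WT 4, against 8.23, 8.18, 8.25 and 8.45 (0.659 times, adjusted p = 6.7e-05). Pdia3 (ERp57), the partner of the lectin chaperones, was at 8.76 in KO 4 and 9.02 in WT 4, against 9.38, 9.31, 9.38 and 9.43 (0.714 times, adjusted p = 0.00012). In each of these genes both libraries numbered 4 were below all others. KO 4 was the lower of that pair each time.

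Dnajc10 (ERdj5), a J-domain reductase that opens bonds before export, fell by 0.41 (SE 0.05). P4hb, the founding disulfide isomerase, differed by -0.22 (SE 0.06, adjusted p = 0.013). Without KO 4 its difference was -0.12 and the call ended (adjusted p = 0.24), as it did under quantile normalization, at -0.10 (adjusted p = 0.14). Pdia4 (ERp72) differed by -0.11 and did not pass (SE 0.05, adjusted p = 0.12). Erp44, which retains proteins with free thiols in the early secretory route, was at 6.09 in KO 4 and 6.19 in WT 4, against 6.0, 6.03, 6.03 and 6.2 in KO 1, KO 2, WT 1 and WT 2. These ranges overlapped, and its difference was 0.08 (SE 0.06, adjusted p = 0.32).

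ERAD genes were split, with 4 of 9 higher and 2 lower. Of all tested genes 31.8% were higher and 33.8% lower, and 9 genes are too few to set these counts apart from that. The rise was in Herpud1, Sel1l, Os9 and Derl1, which encode parts of the membrane complex that recognises and extracts substrates. Herpud1, a scaffold of the HRD1 ligase complex, reached 6.67 log2 CPM in KO 4 and 6.75 in WT 4, against 5.09 and 5.36 in KO 1 and KO 2 and 4.90 and 6.07 in WT 1 and WT 2. The libraries numbered 4 were the highest, but WT 2 exceeded WT 1 by 1.17, the widest gap of any member between libraries of 1 genotype with the numbers 1 and 2. The difference was 1.35 (SE 0.25, adjusted p = 0.0012), and with a robust variance the call ended (adjusted p = 0.053).

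Sel1l, the adaptor that holds HRD1 stable, was at 7.17 in KO 4 and 7.14 in WT 4, against 6.63, 6.45, 6.55 and 6.57 in KO 1, KO 2, WT 1 and WT 2 (1.52-fold, adjusted p = 3.1e-05). Os9, a lectin that reads trimmed glycans, was at 6.61 in KO 4 and 6.62 in WT 4, against 5.99, 5.99, 6.02 and 6.10 (1.51-fold, adjusted p = 1.9e-05). Derl1, a derlin of the export channel, was at 7.73 in KO 4 and 7.85 in WT 4, against 7.31, 7.33, 7.48 and 7.44 (1.32-fold, adjusted p = 7.6e-05). KO 4 and WT 4 were the highest libraries in all of these genes.

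Syvn1, the gene of the ligase HRD1 itself, differed by -0.11 (SE 0.06, adjusted p = 0.15) and did not pass, although its partners Sel1l and Herpud1 did. With the length and GC correction Syvn1 was at -0.17 and passed (adjusted p = 0.025). Of the mannosidase-like EDEM genes, whose products mark glycoproteins for disposal, Edem1 fell by 0.34 (SE 0.07, adjusted p = 0.0022) and Edem2 by 0.27 (SE 0.08, adjusted p = 0.018). The Edem2 call ended without KO 4 or WT 4, at -0.25 and -0.28. Edem3 was at 5.79 in KO 4 and 5.66 in WT 4, against 5.78, 5.56, 5.61 and 5.65 in KO 1, KO 2, WT 1 and WT 2, and overlapped. Derl2, the second derlin in the set, differed by 0.09 (SE 0.06, adjusted p = 0.21).

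In the group of translocon genes and Ufm1 only Sec61b passed, where 31.8% of all tested genes were higher and 33.8% lower. Sec61b, the small beta subunit of the Sec61 channel, reached 4.98 log2 CPM in KO 4 and 5.35 in WT 4, against 5.90, 5.84, 5.80 and 6.07 in KO 1, KO 2, WT 1 and WT 2 (0.598 times, adjusted p = 0.00012). Sec61a1, the pore subunit, was at 7.95 in KO 4 and 8.14 in WT 4, against 8.06, 8.07, 8.14 and 8.15. Its difference of -0.06 (SE 0.05) did not pass, and under quantile normalization it was 0.13 and passed (adjusted p = 0.042). Serp1 (RAMP4), which associates with the channel, was at 7.94 in KO 4 and 8.14 in WT 4, against 8.04, 7.77, 8.0 and 8.05. It differed by 0.07 (SE 0.07), and passed under quantile normalization at 0.26 (adjusted p = 0.0093). Ufm1, a ubiquitin-like modifier that is attached to ribosomes at the ER, was at 5.98 in KO 4 and 6.15 in WT 4, against 6.03, 6.06, 6.07 and 6.05, a difference of 0.01 (SE 0.06).

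**Figure D3:**
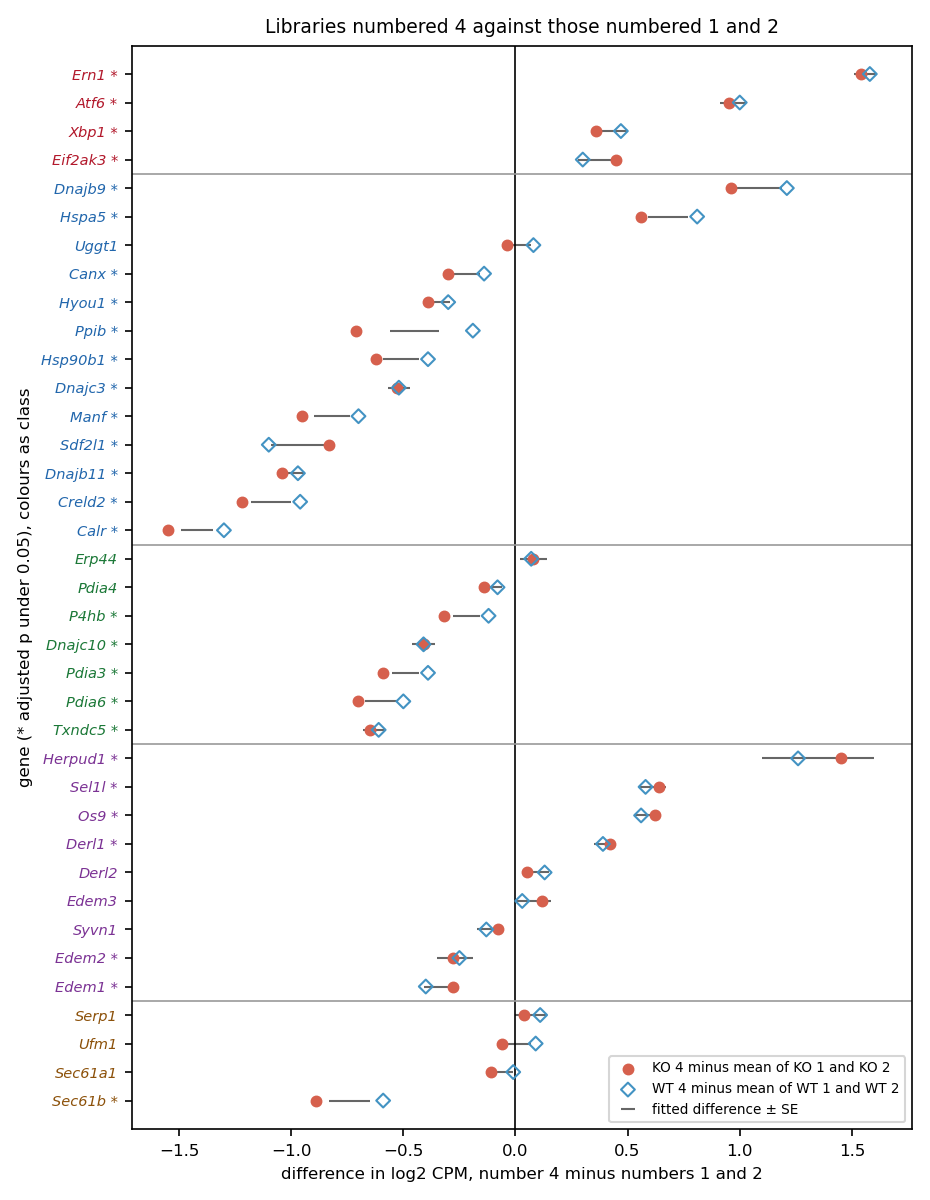
Difference in log2 CPM between the library numbered 4 and the mean of those numbered 1 and 2, for 37 genes. Circles are KO, diamonds are WT, lines are the fitted difference ± SE, and asterisks mark an adjusted p under 0.05. Ern1 lies farthest right at 1.56 and Calr farthest left at -1.42, and the genotypes fall on the same side of 0 in every gene that passed.

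Promoter sequence was set beside these directions, to see which members share a response element. The ER stress response element (ERSE), which ATF6 and XBP1 bind together with NF-Y, was searched on both strands as CCAAT and CCACG with 9 bases of any kind between them. The windows were RefSeq promoters of GRCm38.p6, from 250 bases before to 50 bases after each gene's start, and 32 members had one. The element was present in 8 of these 32 members (25%), against 0.168% of the 8944 tested genes with a window and 0.137% of all 27025 symbols with one. In the following stretches the fixed letters of the match are in capitals, with 20 bases on either side, each read 5′ to 3′ on the strand of its gene. The start is that of RefSeq, which for Hspa5 lies 120 bases inside the gene interval of the GENCODE annotation given above. The Hspa5 match therefore falls in the first GENCODE exon and is printed without flanks. In Calr, Creld2 and the second Hsp90b1 match the element lies in reverse orientation.
Hspa5, chr2:34772025-34772043, plus strand: CCAATcggaggcctCCACG
Calr, chr8:84847055-84847113, minus strand: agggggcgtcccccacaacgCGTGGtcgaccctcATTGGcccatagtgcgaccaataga
Canx, chr11:50325780-50325838, minus strand: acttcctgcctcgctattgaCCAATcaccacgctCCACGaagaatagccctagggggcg
Hsp90b1, chr10:86705618-86705676, minus strand: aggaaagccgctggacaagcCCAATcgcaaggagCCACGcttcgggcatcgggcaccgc
Hsp90b1, chr10:86705513-86705571, minus strand: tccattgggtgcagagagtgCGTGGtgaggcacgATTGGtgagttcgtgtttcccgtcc
Dnajc3, chr14:118937807-118937865, plus strand: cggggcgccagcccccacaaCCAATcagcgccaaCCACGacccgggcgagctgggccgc
Creld2, chr15:88819500-88819558, plus strand: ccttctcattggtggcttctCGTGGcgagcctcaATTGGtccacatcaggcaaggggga
Pdia6, chr12:17266471-17266529, plus strand: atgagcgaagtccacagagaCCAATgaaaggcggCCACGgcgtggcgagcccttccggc
Syvn1, chr19:6046512-6046570, plus strand: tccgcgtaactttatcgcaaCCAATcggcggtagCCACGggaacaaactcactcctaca

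Of these 8 genes 1 rose in the libraries numbered 4, 6 fell and 1 did not pass. Over all 37 members 10 rose and 18 fell, and of all tested genes 31.8% rose and 33.8% fell. Hspa5, with the match starting 65 bases before the RefSeq start, rose by 0.68, whereas Calr, with the match at 162 bases, fell by 1.42. Hsp90b1, with matches at 212 and 107 bases that do not overlap, fell by 0.51. Among the 7 other tested genes with the element, none of them members, 2 were higher and 1 lower. Among the members with the element Hspa5 was thus the only one that rose. A match describes these letters only and does not show binding.

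A related element, ERSE-II, with ATTGG and CCACG set 1 base of any kind apart on either strand, was found in Herpud1 and Dnajb11, 2 of the 32 members (6.25%), against 0.101% of the tested genes with a window. Herpud1, which rose by 1.35, carries it 52 bases before the start, shown here with its fixed letters in capitals and 20 bases on either side.
Herpud1, chr8:94386357-94386407, plus strand: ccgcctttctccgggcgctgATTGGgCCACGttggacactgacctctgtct
In Dnajb11, which was at 0.499 times the level, the match lies after the start. The letters TGACGTGG, an XBP1 element known as UPRE, occurred in 1 member, Txndc5, 138 bases before the start, and in 1.06% of the tested genes with a window. For Txndc5 the RefSeq start lies 910 bases inside the GENCODE gene interval, so this match lies within that interval. The matches of the 3 elements in members do not overlap. No match says only that the letters are absent from this window.

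Other genes of the pathway were read from lists drawn up by function, also with earlier results of these data known. All 12 genes of the PERK arm, ATF4 and its targets were higher in the libraries numbered 4, where 31.8% of all tested genes were. Their median difference was 2.58. Trib3, a pseudokinase gene, reached 8.79 log2 CPM in KO 4 and 8.92 in WT 4, against 3.81, 4.05, 3.90 and 5.66 in KO 1, KO 2, WT 1 and WT 2. Ddit3, which encodes the transcription factor CHOP, was at 6.45 and 6.87, against 2.54, 2.41, 2.51 and 2.83. Both were far above the other 4 libraries, with differences of 4.50 (SE 0.39, adjusted p = 1e-05) and 4.09 (SE 0.12, adjusted p = 4.3e-08). Ppp1r15a, whose product restores translation, differed by 3.58 (SE 0.11) and Nupr1, a stress-induced nuclear protein gene, by 3.54 (SE 0.18). ATF4 is also reached through other eIF2α kinases, so these genes are not specific to the ER.

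Of 37 tested genes of translocation, signal cleavage, N-glycan transfer and UFM1 attachment 21 fell and 4 rose, with a median of -0.28. The largest difference was in Ssr1, a translocon-associated protein gene, at -1.22 (SE 0.06, adjusted p = 3.6e-07). Spcs3, a subunit of signal peptidase, differed by -0.81 (SE 0.05), and Ostc and Dad1, both of the oligosaccharyltransferase, by -0.74 (SE 0.08) and -0.71 (SE 0.06). Among 35 further folding and oxidation genes 12 rose and 12 fell, near the shares of all tested genes, of which 31.8% were higher and 33.8% lower. They included Qsox1, a sulfhydryl oxidase (0.87, SE 0.09), Tmx1, a membrane thioredoxin (-0.90, SE 0.07), and Fkbp11, a prolyl isomerase (-0.92, SE 0.13).

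Of the 29 further ERAD genes 11 were higher and 9 lower, also near those shares. Erlin1, which helps degrade ER membrane proteins, was higher by 0.91 (SE 0.09), Erlec1, a lectin like Os9, by 0.84 (SE 0.11), and Tmub1 by 1.08 (SE 0.12). Vcp, the ATPase that pulls substrates from the membrane, reached 7.92 log2 CPM in KO 4 and 8.05 in WT 4, against 9.01, 9.0, 9.02 and 9.02 in KO 1, KO 2, WT 1 and WT 2. That is a difference of -1.02 (SE 0.05, adjusted p = 5.7e-07). Among 9 other stress transducers 4 rose and 2 fell, too few genes to set apart from those shares. They included Wfs1, an ER membrane protein gene (1.03, SE 0.09).

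**Figure D4:**
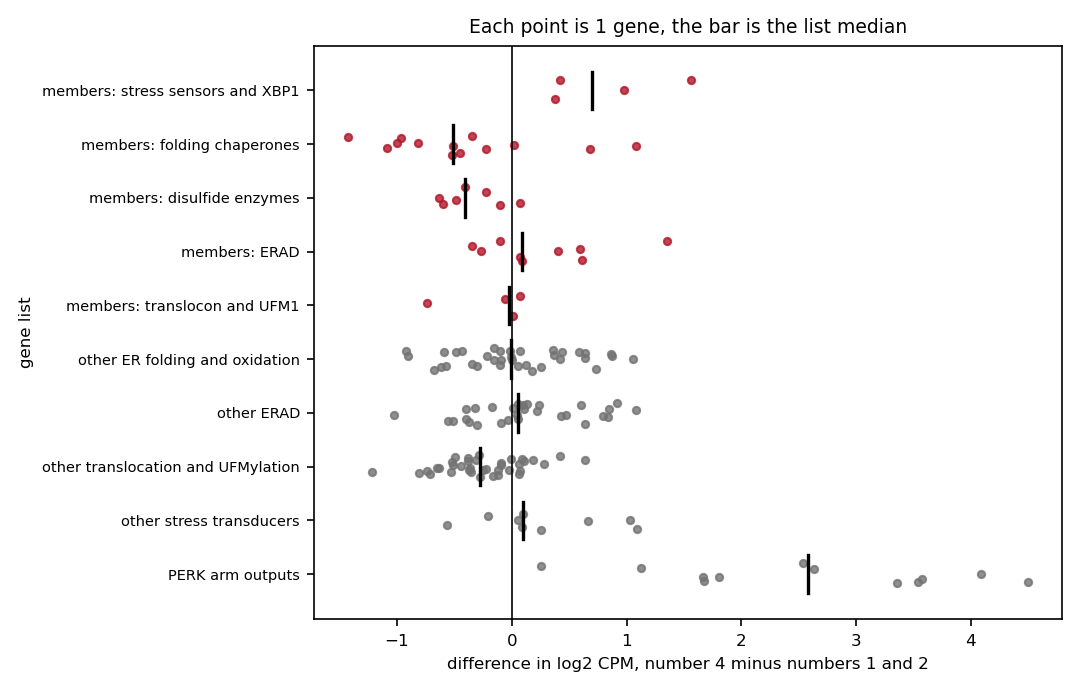
Differences in log2 CPM of the libraries numbered 4 from the 4 others, 1 point per gene, for the 5 member classes (red) and 5 lists of other pathway genes (grey). Bars are list medians. The PERK arm outputs have a median of 2.58, and the medians of the other lists lie between -0.51 and 0.70.

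Summed over each class, the libraries numbered 4 had more sensor transcript and less disulfide enzyme transcript. The sensors and Xbp1 summed to 545.4 CPM in KO 4 and 584.5 CPM in WT 4, against 280.4 to 308.3 CPM in the other 4 libraries. ERAD genes summed to 810.5 CPM in KO 4 and 836.5 CPM in WT 4, against 618.3 to 699 CPM. Disulfide enzymes summed to 1719 CPM in KO 4 and 2014 CPM in WT 4, against 2345 to 2588 CPM. For the folding chaperones the sums overlapped, at 5702 CPM in KO 4 and 6999 CPM in WT 4, against 6480 to 7117 CPM, with Hspa5 counted among them.

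Several other measures moved with the library number, where 31.8% of all tested genes were higher and 33.8% lower. Mitochondrially encoded genes, which can reflect both RNA quality and mitochondrial content, were lower in 6 of 7 measured genes and summed to 3220 CPM in KO 4 and 2971 CPM in WT 4, against 3897 to 5077 CPM. Epithelial markers were higher in 4 and lower in 4 of 9 measured genes and summed to 3136 CPM in KO 4 and 3358 CPM in WT 4, against 3535 to 4104 CPM. As a share of all CPM in a library these epithelial sums overlapped, at 0.334% in KO 4 and 0.349% in WT 4, against 0.343% to 0.399%. The sums of the sensors, ERAD genes, disulfide enzymes, leukocyte markers and mitochondrially encoded genes stayed apart from the other 4 libraries as shares. Among 9 leukocyte markers 2 had values, Cd68 and Cd74. Cd74, the invariant chain of MHC class II, reached 5.79 log2 CPM in KO 4 and 6.05 in WT 4, against 3.60, 2.47, 4.78 and 3.35 in KO 1, KO 2, WT 1 and WT 2. Cd68 did not rise, with a difference of -0.27 that did not pass (SE 0.25, adjusted p = 0.36 in limma's test). The leukocyte sum was 59.84 CPM in KO 4 and 71.58 CPM in WT 4, against 11.26 to 34.47 CPM. Its rise thus lay in Cd74 alone. Ptprc, Cd3e and Itgam are not among the listed symbols. Of the fibroblast markers only Pdgfra of 9 was measured, at 2.99 to 3.61, and of the endothelial markers 0 of 7. Across the 37 members Spearman's rho between the difference and transcript length was 0.406 as a description, and 0.089 across 11174 tested genes. With a correction for length and GC content, chosen after seeing the data, 10 members were higher and 19 lower. The part of the other measures in the result was not tested.

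KO against WT was a far smaller contrast, and no member passed it. In limma's test over all 6 libraries 0 of 37 members had an adjusted p under 0.05, as did 0% of all tested genes. At an unadjusted p under 0.05 there were 0 members, and 23 of 11269 genes. limma voom on the recovered reads also called 0 members, with 0 at an unadjusted p under 0.05. The members lay mostly a little below WT, with 34 of 37 mean differences under 0 (91.9%), where 52.9% of all tested genes were. This count varied when single libraries were left out. Without a block, that leaves the genotypes with unequal shares of the libraries numbered 4, so the shift of those libraries enters the difference. It was 19 of 37 without KO 4 and 24 without WT 2, where 48.8% and 50.2% of all tested genes were below 0, and 27 to 32 with any 1 of the other 4 left out. With the libraries numbered 1 and 2 alone it was 32, against 50.5%, with 0 members called. The median difference was -0.10 over the members and -0.01 over all tested genes. The spread between numbers stayed in the residual of this fit, so the median SE was 0.211 over the members. With the column number as a replicate block it was 0.0592.

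Within column numbers, 17 of 37 members were lower in KO in 3 of 3 pairs (45.9%), against 17% of all tested genes, and 0 were higher in 3 of 3, against 15.6%. The pair medians were -0.03, -0.12 and -0.13 for the numbers 1, 2 and 4, so the pair numbered 1 showed little difference. With the replicate block 0 members passed and 0.00887% of all tested genes did. At an unadjusted p under 0.05 the block gave 9 members lower (24.3%) and 0 higher, where 5.08% and 4.84% of all tested genes were lower and higher. The 9 were Xbp1, Hspa5, Manf, Pdia6, P4hb, Derl1, Syvn1, Sec61a1 and Serp1, with adjusted p of 0.26 to 0.49 over all genes in limma's test. With only the libraries numbered 1 and 2 there were 3 members at that p, without a block. limma voom with the block also gave 9 members at an unadjusted p under 0.05 and called 0.

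**Figure D5:**
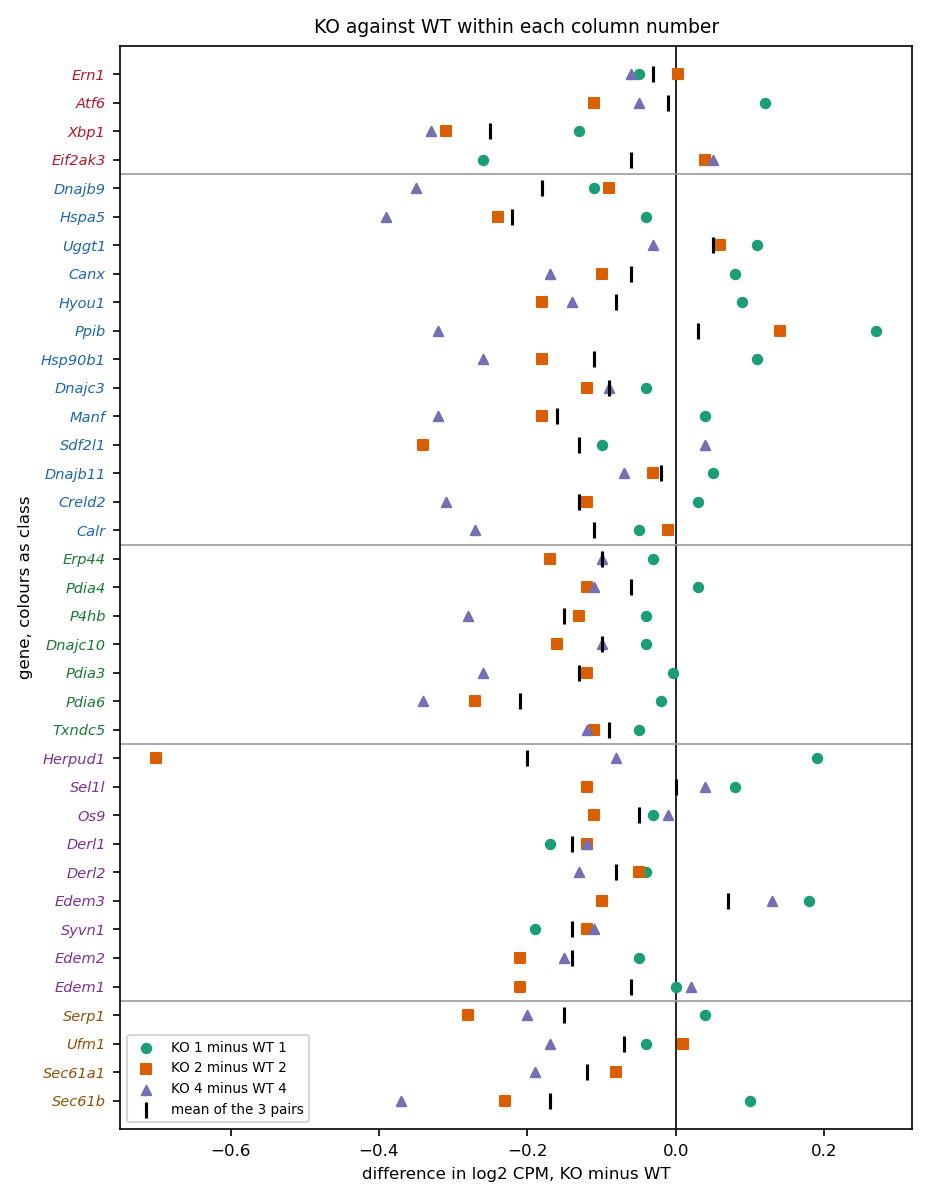
KO minus WT difference in log2 CPM for 37 genes, with 1 point for each column number and a bar for the mean of the 3 pairs. Most points lie left of 0 and within 0.4 of it, and Herpud1 in the pair numbered 2 lies at -0.70.

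In the class of the sensors and Xbp1, the smallest p was that of Xbp1, which is not itself a sensor. It had a mean log2 CPM of 6.32 ± 0.21 in KO libraries and 6.57 ± 0.30 in WT libraries (SD, n = 3), and KO minus WT was -0.13, -0.31 and -0.33 in the pairs numbered 1, 2 and 4. The difference of -0.25 had an SE of 0.19 in limma's test (adjusted p = 0.9999) and of 0.06 once the replicate block was added (adjusted p = 0.26). The sensors themselves were close to 0, with -0.01 for Atf6, -0.03 for Ern1 and -0.06 for Eif2ak3. Eif2ak3 was lower in the pair numbered 1 (-0.26) and slightly higher in the pairs numbered 2 and 4 (0.04 and 0.05).

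Hspa5 had a mean log2 CPM of 11.00 ± 0.32 in KO libraries and 11.22 ± 0.48 in WT libraries (SD, n = 3). Its pair differences of -0.04, -0.24 and -0.39 were unequal, and the mean of -0.22 had an adjusted p of 0.9999 without and 0.39 with the replicate block in limma's test. For Dnajb9 the pair differences were -0.11, -0.09 and -0.35. Of all tested genes 52.9% were below WT on average and 17% in 3 of 3 pairs. Of the 13 folding chaperones 11 were below WT on average, 4 of them in 3 of 3 pairs, with a class median of -0.11. Without KO 4 the median was 0.10 with 2 of 13 below WT, without WT 2 it was 0.02 with 3 of 13, and without WT 4 it was -0.24. Each of these fits leaves the genotypes with unequal shares of the libraries numbered 4. With the libraries numbered 1 and 2 alone the median was -0.05 with 10 of 13 below WT. The pair medians were 0.04, -0.12 and -0.26, lowest in the pair numbered 4. Ppib changed side between pairs, at 0.27, 0.14 and -0.32, and Uggt1 stood at 0.11, 0.06 and -0.03.

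Disulfide enzymes were below WT in 7 of 7 genes, 6 of them in 3 of 3 pairs. Of all tested genes 52.9% were below WT on average and 17% in 3 of 3 pairs. The class median was -0.10. Without KO 4 the median was 0.03 with 3 of 7 below WT, without WT 2 it was -0.05, and it was -0.20, -0.21 and -0.24 without KO 1, KO 2 and WT 4. These fits too leave unequal shares of the libraries numbered 4. With the libraries numbered 1 and 2 alone the median was -0.08 with 7 of 7 below WT. Pdia6 had a mean log2 CPM of 7.97 ± 0.41 in KO libraries and 8.18 ± 0.31 in WT libraries (SD, n = 3), with pair differences of -0.02, -0.27 and -0.34 (limma with the replicate block, adjusted p = 0.35). P4hb differed by -0.04, -0.13 and -0.28. The pair numbered 1 was near 0 in each of the 7 genes, between -0.05 and 0.03.

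ERAD genes were below WT in 8 of 9 genes, 5 of them in 3 of 3 pairs. Of all tested genes 52.9% were below WT on average and 17% in 3 of 3 pairs. Derl1 had a mean log2 CPM of 7.46 ± 0.24 in KO libraries and 7.59 ± 0.23 in WT libraries (SD, n = 3) and had the most even pair differences of the set, -0.17, -0.12 and -0.12 (adjusted p = 0.40 with the replicate block in limma's test). Syvn1 was nearly as even, at -0.19, -0.12 and -0.11. Herpud1 was uneven, at 0.19, -0.70 and -0.08, and the value of the pair numbered 2 goes with the high WT 2. Over the members WT 2 was above WT 1 in 27 of 37 genes, with a median gap of 0.0636, where 49.8% of all tested genes were above. KO 2 was above KO 1 in 18 of 37, so the members also varied between WT libraries of the same genotype.

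In the translocon group 4 of 4 genes were below WT on average and 1 in 3 of 3 pairs. Of all tested genes 52.9% and 17% were, and 4 genes are too few to set these counts apart from that. Sec61a1 had a mean log2 CPM of 8.02 ± 0.06 in KO libraries and 8.14 ± 0.01 in WT libraries (SD, n = 3), with pair differences of -0.08, -0.08 and -0.19 (limma with the replicate block, adjusted p = 0.46). All 3 KO libraries, at 8.06, 8.07 and 7.95, lay below the 3 WT libraries, at 8.14, 8.15 and 8.14. Sec61b differed by 0.10, -0.23 and -0.37.

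Of the other pathway genes 96 of 122 were below WT on average, where 52.9% of all tested genes were. Their median was -0.07, and 0 passed the threshold. Among the PERK arm outputs 11 of 12 were below WT, and the median was -0.24, or 0.04, -0.42 and -0.10 by pair. Trib3 was at 3.81, 4.05 and 8.79 log2 CPM in KO 1, KO 2 and KO 4, against 3.90, 5.66 and 8.92 in WT 1, WT 2 and WT 4, so its gap lay in the pair numbered 2. Mitochondrially encoded genes went the other way, with 7 of 7 higher in KO in 3 of 3 pairs, against 15.6% of all tested genes. The median of these genes was 0.19. Their part in the differences of the ER genes was not tested.

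Whether the shift of the libraries numbered 4 differed between genotypes was asked with an interaction term. No member passed in limma's test, nor did any other gene (0%), and 1 member had an unadjusted p under 0.05, where 3.9% of all tested genes did. The estimate was below 0 in 27 of 37 members (73%), against 52.3% of all tested genes, and its median was -0.08, and -0.23 in the folding chaperones, of which 12 of 13 were below 0. Ppib was the gene with the unadjusted p under 0.05. Its shift was -0.71 in KO and -0.19 in WT, a difference of -0.52 (SE 0.13, adjusted p = 0.997). For Calr the shift was -1.55 in KO and -1.30 in WT, and for Hspa5 0.56 in KO and 0.81 in WT. With a single library numbered 4 per genotype, the spread in this fit comes from the libraries numbered 1 and 2.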

How the data were processed

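RNA was sequenced from 6 libraries, 3 of KO and 3 of WT pools. Per the labels' protocols, libraries were a stranded mRNA preparation from column-purified total RNA. Tools named in the submitters' processing notes are edgeR, featureCounts, Subread 1.6.4, STAR 2.7.3a and Trimmomatic 0.39, and the build is GRCm38. Strand setting, annotation release, filter and normalization were not given in the sources used here. Values deposited by the authors are log2 CPM with a prior, and each listed gene has log2 CPM of 0 or more in at least 2 libraries. Exons of 7 members overlap those of another listed gene, namely Manf, Ppib, Pdia3, Pdia6, Syvn1, Derl2 and Serp1, so their values may hold reads of a neighbour.

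Whole reads were recovered from the steps of the linear values, within a tolerance of 0.01 for 100% of values. Genes that had log2 CPM 0 or higher in 3 or more libraries were fitted with limma 3.58.1 in R 4.3.3, with a trended prior variance and two-sided tests, and p-values were Benjamini-Hochberg adjusted over 11269 genes with a threshold of 0.05. The unblocked fit of KO against WT and the fit for the libraries numbered 4 were checked on simulated data. The data simulated for KO against WT held no shift of the libraries numbered 4. That check therefore does not cover the wider spread this shift gives the real fit. The fits with the replicate block or the interaction were not simulated. Because the authors' prior is part of each log2 value, changes of low genes are understated. With 3 reads as the limit of a count of 0, the libraries allow levels up to 0.144 to 0.173 CPM in such a gene, by counting error alone.

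Columns numbered 1 and 2 were matched to pools of that number, and those numbered 4 to their genotype. Deviations from the genotype means of same-numbered KO and WT libraries correlated at 0.744, 0.784 and 0.921 for the numbers 1, 2 and 4, so the numbers were taken to pair the libraries, from the data and not from a label. Differently numbered libraries 1 and 2 also correlated, at 0.687 and 0.617. Each deviation is from a mean that includes the library numbered 4, so libraries 1 and 2 share its shift. The check thus gives little ground for pairing number 1 with 1 and 2 with 2. Members, classes and lists were chosen with earlier results of these data known. Values in every library are given for Hspa5, Xbp1 and the sensors, and per class for the 3 largest differences, the smallest, and the smallest blocked p. Hsp90b1, Sil1, Vcp, Trib3, Ddit3, Cd74 and Myo1e were given in full after their values were seen.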

Additional observations from a re-analysis of the deposited data

Results flagged for a closer look

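Uggt1 and Ufm1 moved in opposite directions in the genotypes when the library numbered 4 was set against both others. For Uggt1 the shift was -0.04 in KO and 0.08 in WT, a difference of -0.12 that did not pass in limma's interaction test (adjusted p = 0.997). For Ufm1 it was -0.06 in KO and 0.09 in WT, a difference of -0.15 that did not pass either (adjusted p = 0.997). Groups of 3 libraries were too small for a check of single outlying libraries.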

How the results depend on the processing

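The number of members called in the libraries numbered 4 stayed within 1.5 times its value in all 17 alternatives run, covering the filter, the pseudocount (1 or 0.25), the scaling, the variance model, the genotype term, voom on recovered reads, each library left out and, chosen after seeing the data, a length and GC correction. Of the called members 8 of 10 that rose and 14 of 18 that fell kept their call in all of them. With a library left out, 9 to 10 members were higher and 14 to 19 lower. Over all genes 2619 to 3681 were higher and 2973 to 3814 lower. KO against WT and the interaction called 0 members in 21 and 10 alternatives. Over all genes KO against WT called 1 gene with the replicate block, also 1 when voom or that correction (both chosen after seeing the data) was joined to the block, against 0 otherwise, and 0 with any library left out. The block changed no other call.

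Signs changed for several differences that had not passed. For Uggt1 in the libraries numbered 4 the value was -0.0018 with median centring and -0.12 once corrected for length and GC, and -0.04 to 0.08 with a library left out. For Ufm1 the values were -0.01 and -0.02, and -0.06 to 0.09 with a library left out. Sec61a1 became 0.13 with quantile normalization. For KO against WT, where single genes were followed for the smallest blocked p of each class, Hspa5 ranged from -0.41 to 0.05 and Pdia6 from -0.38 to 0.03 with a library left out. Class medians of KO against WT ranged over all alternatives from -0.35 to 0.18 for the sensors, -0.24 to 0.10 for folding chaperones, -0.24 to 0.03 for disulfide enzymes, -0.11 to 0 for ERAD and -0.17 to -0.06 for the translocon group, with both ends from a library left out. Leaving out 1 library without a block leaves the genotypes with unequal shares of the libraries numbered 4. With 6 libraries, differences within the SEs given were not detectable.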
